A study of Mus musculus with 12 samples.

Results

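Expression of 8 p53 and DNA damage response genes was followed in mouse retina on day 3 after a transient elevation of intraocular pressure (IOP). The genes were the growth arrest and DNA damage genes Gadd45a, Gadd45b and Gadd45g, and the p53 targets Mdm2, Ccng1, Phlda3, Bbc3 and Pmaip1. They were chosen by symbol, and each matched 1 of the 24340 rows of the deposited table. All 8 were among the 18509 genes with a value above 0 in at least 1 library, the genes tested here. With a minimum of 1 FPKM in 3 or more libraries, 7 of the 8 would be kept and Pmaip1 would be lost.

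All 6 mice carried the p16-3MR transgene and were 12 to 16 weeks old. The transgene places a fusion of luciferase, a red fluorescent protein and viral thymidine kinase under the p16 regulatory region, so that ganciclovir (GCV) becomes toxic in cells that express p16Ink4a. In each mouse the pressure of 1 eye was held at 85 to 90 mm Hg for 60 min by infusion into the anterior chamber, a level that the study itself regards as a probable ischemic insult, and the fellow eye, without pressure elevation, was the control. Mice 1, 2 and 5 were then injected daily with GCV at 25 mg/kg, and mice 3, 4 and 6 with PBS. This gave 4 groups of 3 whole retinas: control, IOP, control with GCV, and IOP with GCV. There were no mice without the transgene and no uninjured mice among these libraries.

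The tumor suppressor p53 is a transcription factor that is stabilized when DNA is damaged and that then switches on genes for cell cycle arrest, repair and apoptosis. Mdm2 is both its target and the ubiquitin ligase that degrades it, which closes a feedback loop, and Ccng1 (cyclin G1) takes part in the same loop. Bbc3 (PUMA) and Pmaip1 (Noxa) are BH3-only proteins that neutralize the anti-apoptotic members of the BCL2 family and so release Bax and Bak1, and Bax is required for the death of retinal ganglion cells after injury of the optic nerve. Phlda3 is a pleckstrin homology domain protein that restrains Akt signaling. The Gadd45 proteins are small stress sensors that bind cyclin B with Cdk1, PCNA, p21 and the kinase Map3k4 upstream of p38 and JNK. Gadd45a is the family member classically induced through p53, whereas Gadd45b and Gadd45g are also induced by cytokines and by NF-kB or STAT signaling.

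The promoters of the 3 related Gadd45 genes are shown as a description, and whether their letters bear on the response was not tested. Each line gives the 250 bases before the annotated start, 5′ to 3′ on the strand of the gene, from RefSeq on GRCm38.p6, the mm10 build named in the submitters' processing notes. In Gadd45a the capitals mark a p53 half-site, and in Gadd45b and Gadd45g they mark a TATA box (TATAAA).
Gadd45a, chr6:67037408-67037657, minus strand: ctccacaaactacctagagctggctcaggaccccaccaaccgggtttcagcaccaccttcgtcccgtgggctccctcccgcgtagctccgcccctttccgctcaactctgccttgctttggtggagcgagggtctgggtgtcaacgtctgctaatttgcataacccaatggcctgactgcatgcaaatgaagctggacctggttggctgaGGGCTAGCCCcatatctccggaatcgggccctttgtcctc
Gadd45b, chr10:80929841-80930090, plus strand: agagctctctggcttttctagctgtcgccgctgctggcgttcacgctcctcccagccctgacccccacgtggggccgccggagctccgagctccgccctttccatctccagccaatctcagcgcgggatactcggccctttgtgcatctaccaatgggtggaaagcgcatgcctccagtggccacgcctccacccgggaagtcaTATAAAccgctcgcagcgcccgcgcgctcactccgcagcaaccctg
Gadd45g, chr13:51846425-51846674, plus strand: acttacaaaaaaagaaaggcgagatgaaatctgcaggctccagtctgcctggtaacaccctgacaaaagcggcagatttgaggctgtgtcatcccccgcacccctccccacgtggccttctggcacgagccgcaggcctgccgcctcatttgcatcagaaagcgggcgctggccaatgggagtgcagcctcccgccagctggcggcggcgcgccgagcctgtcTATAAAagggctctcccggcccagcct

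A p53 half-site was also found upstream of Mdm2 and Ccng1, the p53 feedback genes, and is shown in capitals with 25 bases on either side.
Mdm2, chr10:117710910-117710969, minus strand: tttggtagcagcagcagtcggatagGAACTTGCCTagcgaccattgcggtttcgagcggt
Ccng1, chr11:40755437-40755496, minus strand: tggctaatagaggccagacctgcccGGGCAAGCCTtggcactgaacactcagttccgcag

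Counted from the first base of the transcript, the half-site lay at -40 to -31 in Gadd45a, at -186 to -177 in Mdm2 and at -185 to -176 in Ccng1. The TATA box lay at -46 to -41 in Gadd45b and at -27 to -22 in Gadd45g. On either strand, 7.13% of the 32851 RefSeq promoters of the same length held a p53 half-site and 12.4% held TATAAA. AP-1 (TGANTCA, 6.75% of promoters), CRE (TGACGTCA, 1.55%) and STAT (TTCNNNGAA, 7.02%) motifs were not found in these windows of the 7 genes with an entry. An NF-kB motif, which 3.90% of promoters held, was found in 1 of the 3 annotated promoters of Bbc3, as 2 overlapping matches on opposite strands. No motif of the 6 searched was found upstream of Phlda3. The p53 motif searched was 1 half-site of 10 bases and not a pair of them. Bases outside these windows, such as introns, were not searched. These matches describe letters within a short window and not binding.

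RNA of the whole retina was measured, so that fewer cells of a type and less RNA per cell cannot be told apart. The values are FPKM, that is fragments scaled to exon length and library size, and were compared as log2(FPKM + 1) with limma. A gene was called at a Benjamini-Hochberg adjusted p under 0.05 over all 18509 genes. On this scale the change of genes near or below 1 FPKM, here Bbc3 and Pmaip1, is understated. Depth was estimated at 3990000 to 9060000 fragments per library, and the IOP retina of mouse 6 was the shallowest (14844 genes detected, against 16044 to 16593 elsewhere). Markers of rods, cones and bipolar cells were present in every library (summed level 22286 to 48311 FPKM). The IOP retina of mouse 4 stood apart from the other 5 IOP retinas: its ganglion cell markers summed to 1021 FPKM, within the 927 to 1883 FPKM of the 6 control retinas, against 226 to 750 FPKM in the other IOP retinas. The control retina of mouse 1 held lens markers at 6770 FPKM, against 6.18 to 125 FPKM in the other control retinas. Results for the p53 and DNA damage response genes that turn on these libraries are given with and without them. The counts of called cell type markers are given with all libraries only. Those of the longer gene lists are given without these libraries only in part.

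In control retinas the levels of the 8 genes spanned a wide range. Ccng1 was the highest at 54.8 ± 4.5 FPKM (SD, n = 6 retinas), followed by Gadd45a at 32.8 ± 3.3, Mdm2 at 19.0 ± 1.6, Gadd45g at 7.10 ± 1.14, Phlda3 at 4.81 ± 1.08, Gadd45b at 4.11 ± 1.07, Bbc3 at 1.11 ± 0.48 and Pmaip1 at 0.0824 ± 0.1099 FPKM. Of these neighbors, the ranges overlapped between Gadd45g and Phlda3 and between Phlda3 and Gadd45b. In IOP retinas the order was Ccng1, Gadd45a, Gadd45b, Mdm2, Gadd45g, Phlda3, Bbc3 and Pmaip1. Gadd45b, at 35.0 ± 10.1 FPKM (SD, n = 6), overlapped in level with Gadd45a (45.7 ± 10.5 FPKM) and Mdm2 (23.6 ± 9.3 FPKM).

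**Figure D1:**
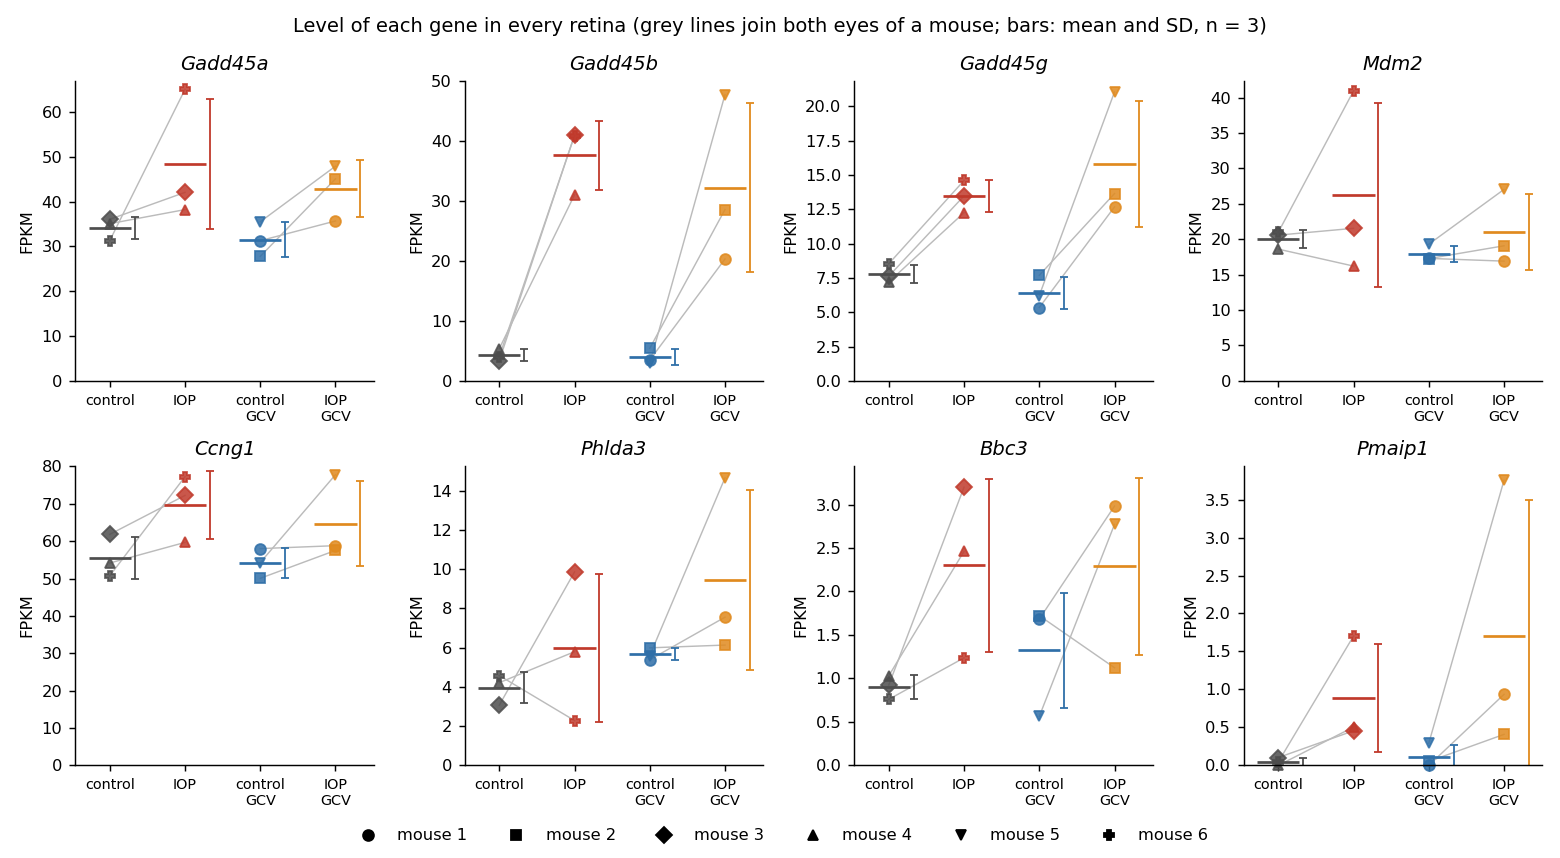
FPKM (linear axes from 0) of each of the 8 genes in the 4 groups, with 1 symbol per mouse, horizontal lines for means, error bars for the SD (n = 3; bars reaching below 0 are cut there) and grey lines joining both eyes of a mouse. Gadd45b was above 20 FPKM in every IOP retina and below 6 FPKM in every control retina, whereas Mdm2 and Phlda3 were higher in the IOP eye of some mice and lower in that of others.

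Among these genes Gadd45b and Gadd45g rose after IOP elevation. Gadd45b rose about 8.5-fold over the 6 mice and was called both without and with GCV. Gadd45g rose about 2.06-fold over the 6 mice. It was called over all mice and in the GCV group, the latter not with the eyes paired. The other 6 genes were higher on average in IOP retinas but did not pass the adjusted threshold. Without GCV, 1 of the 8 genes was called, where 1.65% of all genes were called and 1.42% were called as higher. With GCV, 2 of 8 were called, where 1.8% of all genes were called and 1.65% as higher. With the eyes paired, 1 of 8 was called in that group, where 0.778% of all genes were called. Over the 6 eye pairs, again 2 of 8 were called, where 12.2% of all genes were called and 6.76% as higher. The median log2 fold change of the 8 genes was 0.59 without GCV, 0.53 with GCV and 0.54 over all mice, and that of all genes tested lay between 0 and 0.01.

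**Figure D2:**
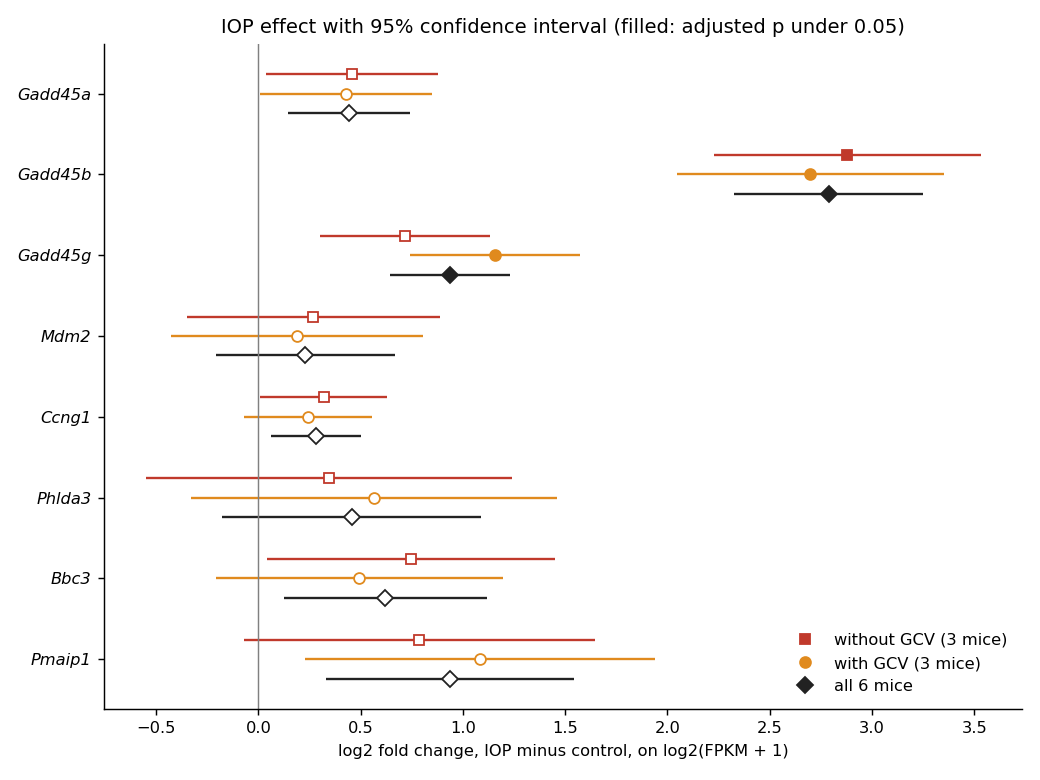
Log2 fold change between IOP and control retinas on log2(FPKM + 1) for each gene, without GCV (squares), with GCV (circles) and over all 6 mice (diamonds), with 95% confidence intervals and filled symbols for an adjusted p under 0.05. Gadd45b stands apart between 2.70 and 2.88, and the intervals of Mdm2 and Phlda3 span 0 in all 3 comparisons.

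Gadd45b had the largest change of the 8 genes on the log2(FPKM + 1) scale. In mice without GCV it stood at 3.40, 5.39 and 4.06 FPKM in the control retinas of mice 3, 4 and 6, and at 41.0, 31.1 and 41.0 FPKM in their IOP retinas. In mice with GCV it stood at 3.48, 5.44 and 2.91 FPKM in the control retinas of mice 1, 2 and 5, and at 20.4, 28.6 and 47.8 FPKM in their IOP retinas. Every IOP retina was above every control retina, a separation that 5.47% of all genes showed, and the ratio within a mouse ran from 5.26 in mouse 2 to 16.4 in mouse 5. The log2 fold change was 2.88 without GCV (standard error 0.29, adjusted p = 0.0046, limma) and 2.70 with GCV (standard error 0.29, adjusted p = 0.00368, limma). Over the 6 eye pairs it was 2.79 (standard error 0.21, 95% confidence interval 2.33 to 3.25, adjusted p = 0.000157, limma). With both eyes of a mouse treated as a pair, these adjusted p values were 0.0355, 0.0342 and 0.00488. Gadd45b was called in each of the 24 fits of these 3 comparisons that left out 1 library.

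Gadd45g, which is known as a cytokine-inducible member of the family, stood at 7.62, 7.20 and 8.53 FPKM in the control retinas of mice 3, 4 and 6, and at 13.5, 12.3 and 14.6 FPKM in their IOP retinas. In mice 1, 2 and 5 it stood at 5.34, 7.68 and 6.22 FPKM in control retinas and at 12.7, 13.6 and 21.0 FPKM in IOP retinas. Here too all 6 IOP retinas were above all 6 control retinas, as for 5.47% of all genes. Within mice 3, 4 and 6 the ratio was nearly the same, 1.70 to 1.77, whereas with GCV it ran from 1.78 to 3.39. The log2 fold change was 0.94 over the 6 eye pairs (standard error 0.13, adjusted p = 0.00249, and 0.0150 with the eyes paired, limma) and 1.16 with GCV (standard error 0.19, adjusted p = 0.0141, limma). The call with GCV was lost with the eyes paired (adjusted p = 0.0523, limma), with the fit restricted to the groups compared (adjusted p = 0.0747), without the control retina of mouse 1 (adjusted p = 0.0684) and without that of mouse 5 (adjusted p = 0.0661). Without GCV the log2 fold change was 0.72 (adjusted p = 0.0980, limma), and among the alternatives at this threshold Gadd45g passed only without the IOP retina of mouse 4 (adjusted p = 0.0417). That Gadd45g was called in one treatment group and not in the other does not show a difference between them, and the test of that difference is given further on.

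Gadd45a was the most abundant of the 3 in control retinas. It stood at 36.0, 35.1 and 31.3 FPKM in the control retinas of mice 3, 4 and 6, at 42.1, 38.2 and 65.0 FPKM in their IOP retinas, at 31.3, 27.8 and 35.5 FPKM in the control retinas of mice 1, 2 and 5, and at 35.7, 45.1 and 47.9 FPKM in their IOP retinas. The IOP eye was higher in 6 of 6 mice, as for 10.7% of all genes, but the lowest IOP retina (35.7 FPKM, mouse 1) lay below the highest control retina (36.0 FPKM, mouse 3). Over the 6 eye pairs its log2 fold change was 0.44 (standard error 0.13, adjusted p = 0.0558, limma) and missed the threshold. It passed without the IOP retina of mouse 4 (adjusted p = 0.0182), where 24.5% of all genes were called. It also passed without the IOP retina of mouse 1 (adjusted p = 0.0452). These were 2 passes among 12 single-library omissions, and the adjusted p rose to 0.129 in the rest. Quantile normalization (adjusted p = 0.0356) and the filter on low values (adjusted p = 0.0423) gave a pass too, 2 of 6 further alternatives at this threshold.

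The make-up of the Gadd45 family differed between IOP and control eyes. The summed level of the 3 genes was 46.2 ± 2.0 FPKM in control and 99.6 ± 19.7 FPKM in IOP retinas without GCV, and 41.9 ± 2.4 and 90.9 ± 24.2 FPKM with GCV (SD, n = 3 each). Gadd45b made up 9.26% ± 2.04 of this sum in control retinas and 38.2% ± 4.3 in IOP retinas without GCV, and 9.50% ± 3.46 and 34.4% ± 5.8 with GCV. The share of Gadd45a was 73.8% ± 2.6 in control and 48.1% ± 5.3 in IOP retinas without GCV and 75.2% ± 6.3 and 48.2% ± 6.2 with GCV, although its own level was higher in the IOP eye of all 6 mice. The share of Gadd45b was higher in the IOP eye of 6 of 6 mice, by 26.9 ± 6.7 percentage points (SD, n = 6; exact sign-flip test over mice, two-sided p = 0.0313, the smallest that 6 mice allow). The change of Gadd45b on the log2 scale exceeded that of Gadd45a by 2.35 ± 0.65 and that of Gadd45g by 1.85 ± 0.53, in 6 of 6 mice each (exact sign-flip p = 0.0313 for both). Gadd45g exceeded Gadd45a by 0.49 ± 0.55, in 5 of 6 mice (exact sign-flip p = 0.0938). Adjusted over these 4 tests, the first 3 p values were 0.0417 and the last was 0.0938. These 4 comparisons were chosen after the change of Gadd45b had been seen, so that their p values describe a known pattern and are not independent support for it.

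**Figure D3:**
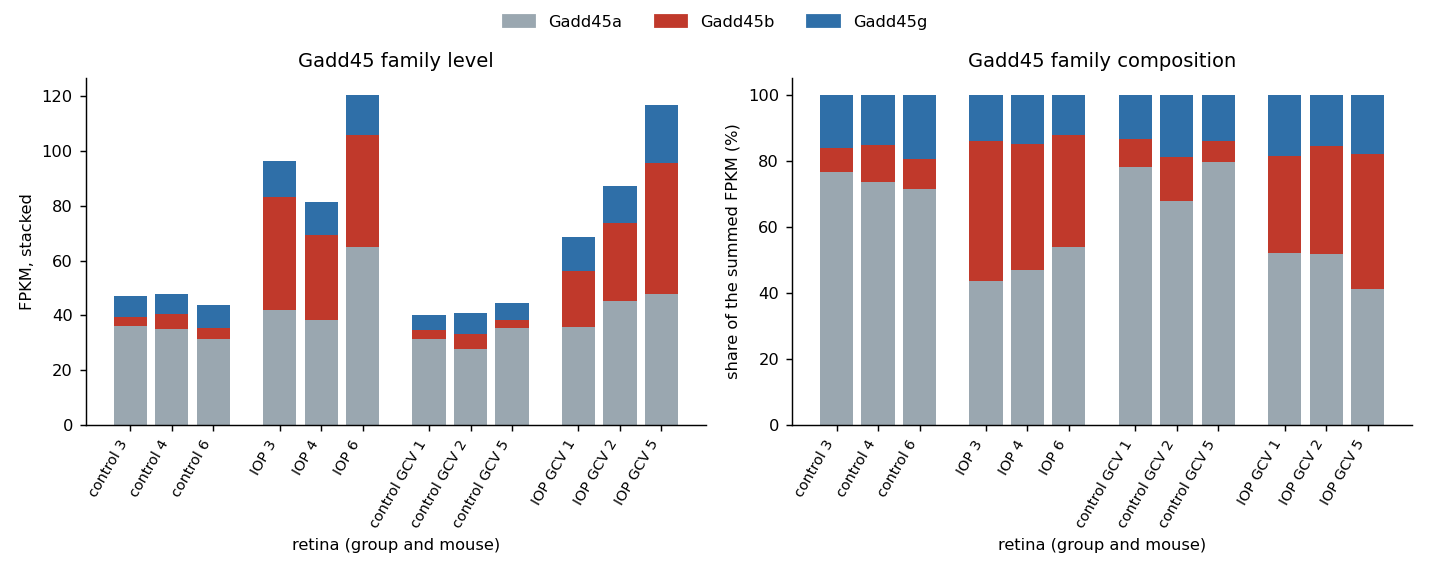
Stacked bars for each of the 12 retinas, labelled by group and mouse: on the left the FPKM of Gadd45a, Gadd45b and Gadd45g, on the right their share of the summed FPKM in percent. Gadd45b occupied 6.53% to 13.3% of the sum in control retinas and 29.6% to 42.5% in IOP retinas.

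The p53 feedback genes Mdm2 and Ccng1 were not called in any comparison. Mdm2 stood at 20.6, 18.6 and 21.0 FPKM in the control retinas of mice 3, 4 and 6 and at 21.5, 16.2 and 40.9 FPKM in their IOP retinas, and at 17.3, 17.3 and 19.3 FPKM against 16.9, 19.1 and 27.0 FPKM in mice 1, 2 and 5. A single retina, the IOP eye of mouse 6, which was also the library of lowest depth, was far above the rest. The log2 fold change over the 6 eye pairs was 0.23 (95% confidence interval -0.21 to 0.67, adjusted p = 0.477, limma), and it was 0.05 without that retina. Leaving out the IOP eye of mouse 5 gave 0.14, and leaving out that of mouse 4 gave 0.37. In mice without GCV the value turned from 0.27 to -0.09 without the IOP retina of mouse 6. The interval still allows a rise of Mdm2 of 0.67 on this scale, so that an unchanged level was not shown.

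Ccng1 stood at 61.8, 54.2 and 50.7 FPKM in the control retinas of mice 3, 4 and 6 and at 72.3, 59.7 and 77.3 FPKM in their IOP retinas. In mice 1, 2 and 5 it stood at 58.0, 50.1 and 54.3 FPKM in control retinas and at 58.8, 57.5 and 77.8 FPKM in IOP retinas. It was higher in the IOP eye of 6 of 6 mice, as for 10.7% of all genes. The ratio was only 1.01 in mouse 1 and 1.52 in mouse 6, and the groups overlapped. The log2 fold change over the 6 eye pairs was 0.28 (standard error 0.10, adjusted p = 0.0878, limma). It passed without the IOP retina of mouse 4 (adjusted p = 0.0326), where 24.5% of all genes were called. Dropping each of the 12 libraries in turn gave no other pass (adjusted p up to 0.187). The further alternatives at this threshold gave none.

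Phlda3 was higher in the IOP eye of 5 of 6 mice, by very different ratios. It stood at 3.07, 4.22 and 4.58 FPKM in the control retinas of mice 3, 4 and 6 and at 9.86, 5.80 and 2.29 FPKM in their IOP retinas, so that it was 3.21 times as high in the IOP eye of mouse 3 and 0.499 times as high in that of mouse 6. With GCV it stood at 5.39, 5.99 and 5.6 FPKM in the control retinas of mice 1, 2 and 5 and at 7.56, 6.13 and 14.7 FPKM in their IOP retinas. All 3 IOP retinas were above all 3 control retinas with GCV, as for 14.5% of all genes. Over the 6 eye pairs the log2 fold change was 0.46 (95% confidence interval -0.18 to 1.09, adjusted p = 0.320, limma). Leaving out the IOP eye of mouse 3 gave 0.26, that of mouse 5 gave 0.29 and that of mouse 6 gave 0.69 (adjusted p = 0.0721). Without the IOP retina of mouse 3, the value in mice without GCV turned from 0.34 to -0.06.

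Of the BH3-only genes, Bbc3 was detected in every retina, at 0.563 to 1.72 FPKM in controls and at 1.12 to 3.20 FPKM after IOP elevation. It stood at 0.925, 1.03 and 0.760 FPKM in the control retinas of mice 3, 4 and 6 and at 3.20, 2.46 and 1.24 FPKM in their IOP retinas, with no overlap, which 11.7% of all genes showed without GCV. In mice 1, 2 and 5 the values were 1.68, 1.72 and 0.563 FPKM in control retinas and 2.98, 1.12 and 2.77 FPKM in IOP retinas, where mouse 2 was lower in its IOP eye. Over the 6 eye pairs the change of Bbc3 on the log2 scale was 0.62 (standard error 0.22, adjusted p = 0.0919, limma). It passed without the IOP retina of mouse 2 (adjusted p = 0.0448), the only mouse that was lower in its IOP eye. No other of the 12 single-library omissions gave a pass (adjusted p up to 0.187). Neither did the further alternatives at this threshold.

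Pmaip1 was near the limit of detection in control retinas. It was listed at 0.103, 0 and 0.0461 FPKM in the control retinas of mice 3, 4 and 6 and at 0, 0.0522 and 0.293 FPKM in those of mice 1, 2 and 5, which correspond to about 0 to 5 fragments each. In IOP retinas it stood at 0.456, 0.505 and 1.70 FPKM in mice 3, 4 and 6 and at 0.936, 0.409 and 3.75 FPKM in mice 1, 2 and 5, or about 7 to 84 fragments. All 6 IOP retinas were above all 6 control retinas, as for 5.47% of all genes. The ratio of the mean FPKM over all mice was 15.7, above the 8.5 of Gadd45b, but its denominator rests on these few control fragments. The log2 fold change over the 6 eye pairs was 0.94 (standard error 0.27, adjusted p = 0.0506, and 0.0514 with the eyes paired, limma) and missed the threshold by little. It passed with a pseudocount of 0.1 (log2 fold change 2.68, adjusted p = 0.0116), 1 of 5 alternatives that kept all libraries at this threshold. It also passed without the IOP retina of mouse 2, 4 or 5 (adjusted p = 0.0218, 0.0359 and 0.0465). These were 3 passes among 12 single-library omissions, and the adjusted p rose to 0.110 in the rest. Without the IOP retina of mouse 4, 24.5% of all genes were called.

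Not the same mice were high for all genes. The IOP retina of mouse 5 held the highest values of Gadd45b, Gadd45g, Ccng1, Phlda3 and Pmaip1. The IOP retina of mouse 6 held the highest values of Gadd45a and Mdm2 and the lowest IOP value of Phlda3. That of mouse 3 held the highest value of Bbc3. Over the 12 libraries, the 3 genes with values most like those of Gadd45b were 2900057B20Rik, Stat3 and Bcl6 (Pearson r = 0.99 each), and those most like Gadd45g were Shisa5 (0.98), Glipr2 (0.97) and Capg (0.97). Those most like Gadd45a were Rpf1, Rars2 and Crnkl1 (0.97 to 0.98) and those most like Mdm2 were Rbm26, Sec23ip and Tpp1 (0.96 to 0.97). Ccng1 was most like Sh3glb1, Pts and Spcs3 (0.95 to 0.97), and Phlda3 most like Fam63a, Lmna and Itfg3 (0.93 to 0.95). Bbc3 was most like AW112010, Ppp1r14b and Psmb10 (0.87 to 0.89), and Pmaip1 most like Irak3, Rnf149 and Pstpip1 (0.98 each). These coefficients were ranked over 12910 genes averaging 1 FPKM or more, and the libraries share the difference between IOP and control eyes.

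GCV treatment was compared in the same fit, which asked whether these genes or their response differed between p16-3MR mice with and without the drug. The removal of p16-expressing cells was not measured by these values. None of the 8 genes was called for the difference between the IOP effects with and without GCV, for GCV in IOP retinas or for GCV in control retinas, and 0% of all genes were called in each (limma). At an unadjusted p under 0.05, 358, 774 and 295 of the 18509 genes passed in these comparisons, and none of the 8. For Gadd45b the IOP effect with GCV minus that without was -0.18 on the log2 scale (95% confidence interval -1.10 to 0.74). Leaving out 1 library moved this value between -0.50 and 0.10. For Gadd45g the difference of IOP effects was 0.44 (95% confidence interval -0.15 to 1.03), and 0.23 without the IOP retina of mouse 5. For Phlda3 the IOP retinas with GCV minus those without differed by 0.66 (95% confidence interval -0.24 to 1.55), a value that was 0.20 without the IOP retina of mouse 6, 0.32 without that of mouse 5 and 1.06 without that of mouse 3. GCV was given to different mice, so that the drug and the mouse are compared over 3 animals each.

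Markers of several cell types moved along with these genes. Of the 10 ganglion cell markers, 8 were called lower over the 6 eye pairs, and with the eyes paired 2 of the 10 were called, where 7.3% of all genes were called. All 10 markers of rods, cones and bipolar cells were lower on average in IOP retinas (median log2 fold change -0.51), of which the cone arrestin gene Arr3 was called. Of the 7 Mueller glia markers, Glul and Rlbp1 were called lower and Apoe, which other cells also express, was called higher, and with the eyes paired 1 of the 7 was called. None of the 6 markers of retinal pigment epithelium and none of the 7 blood markers was called, and 0 of these 13 had an unadjusted p under 0.05 (limma). Of the 15 markers of microglia and leukocytes, 12 were called higher, and their summed level ran from 52.7 to 119 FPKM in the 6 control retinas and from 364 to 3111 FPKM in the 6 IOP retinas. The T cell marker Cd3e and the B cell marker Ms4a1 were at 0.27 FPKM or below in every library. The summed level of the 10 lens markers was 98.5 to 6285 FPKM in IOP retinas, with 6 of 10 called higher. Gadd45b was at 41.0 FPKM in the IOP retina of mouse 3, where lens markers were at 98.5 FPKM, and at 3.48 FPKM in the control retina of mouse 1, where they were at 6770 FPKM. It was at 31.1 FPKM in the IOP retina of mouse 4, where ganglion cell markers were at the control level. Microglia and leukocyte markers were high in all 6 IOP retinas, and the part of any of these cell types in the rise of Gadd45b and Gadd45g was not tested.

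**Figure D4:**
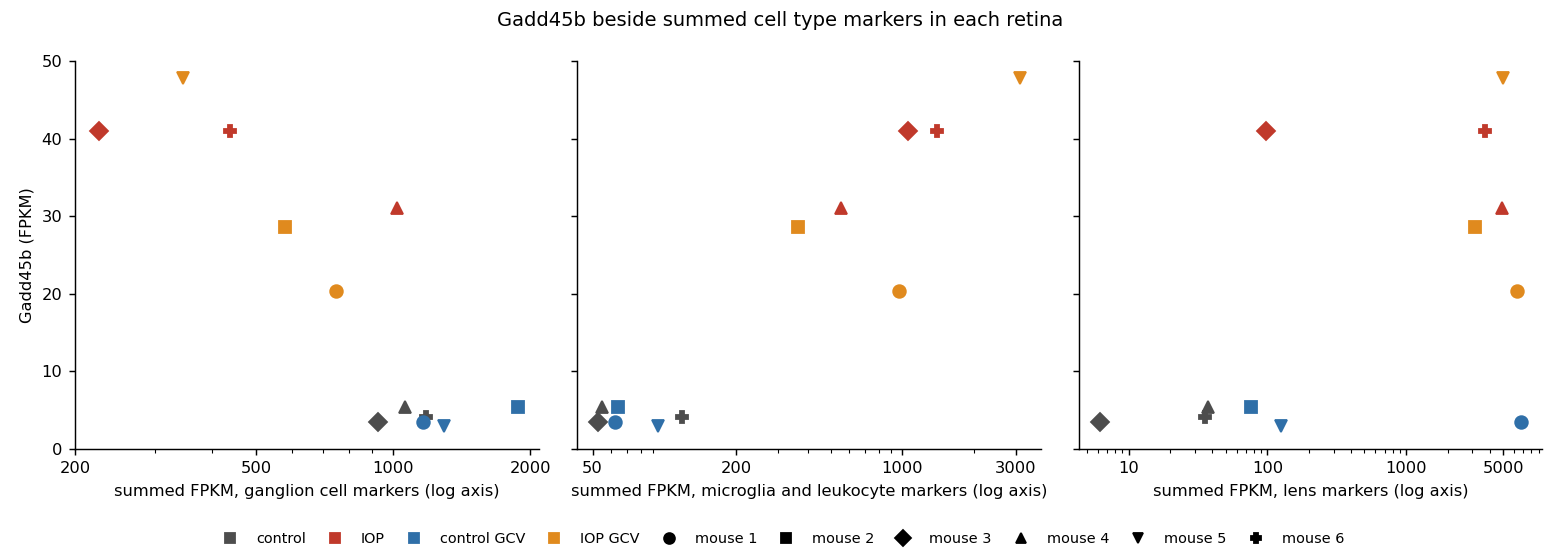
Gadd45b (FPKM, linear axis) in each retina against the summed FPKM (log axes) of 10 ganglion cell markers, 15 microglia and leukocyte markers and 10 lens markers, with colors for groups and symbols for mice. The 6 IOP retinas lie above 20 FPKM over ganglion cell sums of 226 to 1021 FPKM, and the control retina of mouse 1 lies at 3.48 FPKM with the highest lens sum.

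The other genes of the pathway were described over the 6 eye pairs, a comparison in which 12.2% of all genes were called and 6.76% were called as higher. With the eyes paired the share of all genes was 7.3%. These shares count all 18509 genes, of which 12910 averaged 1 FPKM or more, and were not recomputed for genes of similar level. The lists were chosen with earlier results of these data known, and no list was tested against the share of all genes. Of 22 genes for p53, its relatives, its activating kinases and its regulators, Trp53 alone was called (4.55%, below the 12.2% of all genes). The gene encodes p53 and rose from 6.81 ± 1.04 to 11.4 ± 1.2 FPKM without GCV and from 5.96 ± 1.40 to 9.69 ± 3.14 FPKM with GCV (SD, n = 3 each; log2 fold change 0.63, adjusted p = 0.0303, limma). The call was lost with the eyes paired (adjusted p = 0.0527) and without any 1 of 7 libraries, among them the 3 control retinas of mice without GCV. The median log2 fold change of these 22 genes was 0.08. The abundant regulators were not called: the acetyltransferase gene Kat5, the deubiquitinase gene Usp7 and the ubiquitin ligase gene Rchy1.

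Of 32 further p53 targets, 6 were called higher and 2 lower, that is 25% against 12.2% of all genes, and the median log2 fold change was 0.16. With the eyes paired 4 of the 32 were called, where 7.3% of all genes were called, namely Bax, Cdkn1a, Dusp4 and Eda2r. Cdkn1a, which encodes the cell cycle inhibitor p21, rose from 1.54 ± 0.33 to 7.63 ± 2.58 FPKM without GCV and from 1.81 ± 0.25 to 9.52 ± 7.0 FPKM with GCV (SD, n = 3 each; log2 fold change 1.71, adjusted p = 0.00604, limma). Eda2r, a receptor of the TNF receptor family, rose from 0.0246 ± 0.0250 to 0.217 ± 0.124 FPKM without GCV, and with GCV from a listed 0 in every control retina to 0.448 ± 0.261 FPKM (log2 fold change 0.38, adjusted p = 0.0185). Bax, Btg2, Gtse1 and Trp53inp1 were the other genes that rose. The DNA precursor enzyme gene Rrm2b, itself a p53 target, fell by 0.43 (log2, adjusted p = 0.0172, and 0.0538 with the eyes paired), and Dusp4 fell too. The most abundant targets of this list, Ei24, Ddit4 and Sesn1, were higher in the IOP eye of only 2 of 6 mice each and were not called. Leaving out any 1 of the 6 control retinas, or the IOP retina of mouse 5, lowered the count of called genes from 8 to between 2 and 5. In the same fits the share of all genes called fell from 12.2% to between 4.51% and 6.72%.

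Of 13 binding partners and relatives of Bbc3 and Pmaip1 in the BCL2 family, 6 were called higher and 1 lower (53.8%, against 12.2% of all genes), and 3 of them, Bax, Bcl2a1a and Bik, were called with the eyes paired. The rise on the log2 scale was 1.24 for the BH3 gene Bik (adjusted p = 0.00824), 1.12 for the anti-apoptotic Bcl2a1a (adjusted p = 0.0121) and 0.59 for the effector Bax (adjusted p = 0.0224, limma for all). Bcl2a1a was listed at 0 in all 6 control retinas, and as it has near-identical copies its value is uncertain. Mcl1, the main partner of Pmaip1, was 28.8 ± 1.6 FPKM in control and 62.0 ± 33.2 FPKM in IOP retinas without GCV and was called over all mice (adjusted p = 0.0358), though not with the eyes paired (adjusted p = 0.0553). The abundant survival genes Bcl2l1 and Bcl2l2 were not called, and Bcl2 was called lower. The called genes of this list include pro-apoptotic and anti-apoptotic ones. Without any 1 of the 6 control retinas, or the IOP retina of mouse 5, 2 or 3 of these genes were called, in the fits where 4.51% to 6.72% of all genes were called.

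Of 16 genes for proteins that bind or act below the Gadd45 proteins, 4 were called higher and 1 lower (31.2%, against 12.2% of all genes). Cdk1, the mitotic kinase, rose from 0.10 ± 0.097 to 0.833 ± 0.261 FPKM without GCV (log2 fold change 0.73, adjusted p = 0.0360, and 0.0774 with the eyes paired, limma). With GCV it was not called (0.117 ± 0.024 and 0.739 ± 0.352 FPKM, log2 fold change 0.62, adjusted p = 0.0602, limma). Over all mice it rose by 0.68 (adjusted p = 0.00337, limma). Cdkn1a, Ccnb1 and Mapk11 also rose, of which Mapk11 was not called with the eyes paired. Mapk10, the neuronal JNK gene, fell by 1.23 (log2 scale, adjusted p = 0.0328). Pcna, Map2k7 and Mapk9, the most abundant of this list, were not called. Leaving out any 1 of 10 libraries left 2 or 3 of these genes called, where 4.51% to 11.8% of all genes were called.

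The stress factor genes that act beside p53 included 7 of 17 that were called higher and none called lower (41.2%, against 12.2% of all genes), and these 7 were called over all mice with the eyes paired as well. The rise was 1.77 for Stat3, the transducer of interleukin-6 type cytokines (adjusted p = 0.000106), 3.23 for the inflammatory factor gene Cebpd (adjusted p = 0.000131) and 2.03 for the injury factor gene Atf3 (adjusted p = 0.00184, limma for all; log2 scale). These 3 were called both without and with GCV, but with the eyes paired Atf3 lost both calls (adjusted p = 0.0971 and 0.0713, limma). Egr1, Cebpb, Jun and Rela were called over all mice. The abundant Atf4 and Ddit3, which belong to the integrated stress response, were not called. The median log2 fold change of these 17 genes was 0.34.

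Of 38 DNA repair genes, 3 were called higher and none lower, also with the eyes paired. This was 7.89%, near the 6.76% of all genes that were called as higher, and the median log2 fold change was 0.13. Parp1, which senses DNA strand breaks, rose by 0.67 (adjusted p = 0.0131), the alkyltransferase gene Mgmt by 1.02 (adjusted p = 0.0212) and the base excision repair gene Apex1 by 0.31 (adjusted p = 0.0273, limma for all), each in 6 of 6 mice, as for 10.7% of all genes. The abundant Ddb1, Polb and Pcna were not called. Without the IOP retina of mouse 4, 8 of the 38 genes were called, where 24.5% of all genes were called. Leaving out the control eye of mouse 2 left 1 of the 38 called, where 4.98% of all genes were called.

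**Figure D5:**
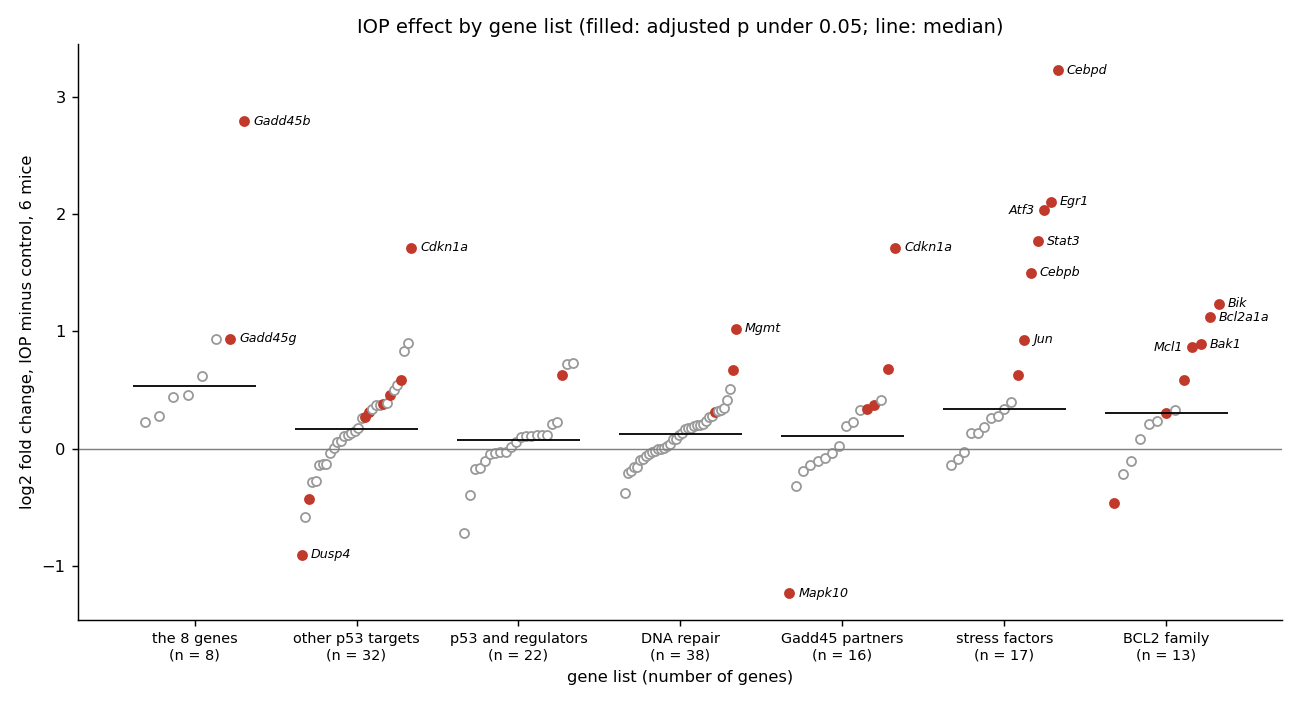
Log2 fold change between IOP and control retinas over 6 mice for each gene of the 7 lists (the 8 genes, 32 further p53 targets, 22 genes for p53 and its regulators, 38 DNA repair genes, 16 Gadd45 partners, 17 stress factors and 13 BCL2 family genes), with filled points for an adjusted p under 0.05 and a line at each median. Cebpd and Gadd45b have the largest values, at 3.23 and 2.79, and the medians of the lists run from 0.08 to 0.54.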

How the data were processed

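RNA of 12 retinas (TruSeq stranded mRNA, paired-end) was counted by the authors with HOMER on exons of RefSeq genes. The submitters' processing notes also name TopHat2, Bowtie2, Cufflinks, Cuffdiff and mm10, without versions or roles. The deposited values appear to be FPKM: no source names the unit, and steps between low values led to it. These steps also gave the estimated depth, so no intervals for single values were computed. No column was left unused.

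limma 3.58.1 (R 4.3.3) was fitted to log2(FPKM + 1) with 4 group means and a variance trend, and was checked on simulated data. Figures were drawn with matplotlib 3.10.9 in Python 3.11.15, from tables read with pandas 2.3.3 and numpy 2.4.6. Both eyes of a mouse are from the same animal, so the mouse was also fitted as a block. Deviations of the paired eyes from their group means correlated at -0.12 to 0.39. Members, lists and tests were chosen with earlier results of these data known. Named were the 8 genes, the 3 most abundant and up to 3 most significant genes of each list, the 3 genes most like a member and, after their values were seen, the other called genes of short lists. Alternatives were the block, a pseudocount of 0.1, genes reaching 1 FPKM in 3 or more libraries, the compared groups alone, median-ratio or quantile scaling, no variance trend, an adjusted p under 0.1 and each library left out. The comparisons within the Gadd45 family and the alternatives for the lists were added after seeing the data.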

Additional observations from a re-analysis of the deposited data

How the results depend on the processing

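Gadd45b kept its call for the IOP effect under every alternative run, without GCV, with GCV and over 6 eye pairs. Of the recomputed counts of the 8 genes called for an IOP effect, 38 stayed within 1.5 times the value reported and 9 did not. The counts of 0 for the GCV comparisons stayed at 0, which says nothing about their stability. With an adjusted p under 0.1, 2 genes were called without GCV and 6 over the 6 eye pairs, where 607 and 4131 of the 18509 genes were called. With GCV, 1 gene was called in the replicate block, in which both eyes of a mouse were paired, and 1 when only the groups compared were fitted. Over all genes, 144 and 92 were called in these 2 fits, against 334 in the main fit. The pairing changed no other call of the 8 genes. Leaving out 1 library gave 1 to 2 called genes without GCV, where 0.125% to 13.5% of all genes were called. The count of 2 came without the IOP retina of mouse 4, the fit with 13.5%. With GCV it gave 1 to 2, where 0.417% to 3.88% of all genes were called. Over 6 eye pairs it gave 2 to 5, where 4.51% to 24.5% of all genes were called. The 5 came without the IOP retina of mouse 4 (24.5%) and a count of 4 without that of mouse 2 (10.8%).

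Directions turned only for changes that were not called. Leaving out 1 library moved the IOP effect without GCV of Mdm2 between -0.0945 and 0.55 and of Phlda3 between -0.0553 and 0.81 (log2 scale, as below). It moved the difference between the IOP effects with and without GCV between -0.18 and 0.20 for Gadd45a, -0.50 and 0.10 for Gadd45b, -0.36 and 0.29 for Mdm2, -0.21 and 0.000985 for Ccng1, -0.24 and 0.62 for Phlda3, -0.52 and 0.0364 for Bbc3, and -0.21 and 0.67 for Pmaip1. After quantile normalization this difference was 0.0252 for Gadd45a and 0.000358 for Ccng1. The effect of GCV in IOP retinas moved between -0.29 and 0.0841 for Gadd45a, -0.0262 and 0.32 for Gadd45g, -0.51 and 0.13 for Mdm2, -0.27 and 0.28 for Bbc3, and -0.13 and 0.75 for Pmaip1. In control retinas it moved between -0.32 and 0.0412 for Gadd45b, -0.0975 and 0.0426 for Ccng1, and -0.0323 and 0.15 for Pmaip1. The cause of these turns was not tested.

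Over all genes, pairing the eyes lowered the number called from 306 to 75 without GCV, from 334 to 144 with GCV and from 2258 to 1351 over 6 eye pairs, and leaving out the IOP retina of mouse 4 raised the first to 2490 and the last to 4515. Median-ratio and quantile scaling moved the median of all genes by less than 0.03. At the estimated depth, values under about 1 FPKM, here those of Pmaip1 and in part Bbc3, rest on few fragments.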
